A study of Homo sapiens with 6 samples.

Results

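The genes described here are 10 genes of the dense-core granule and of prohormone processing, taken as the rows with these symbols among the 19923 protein-coding genes of the count tables. They are the granins CHGA, CHGB, SCG2, SCG3 and VGF, the convertases PCSK1 and PCSK2, the PCSK2 chaperone SCG5, and the finishing enzymes CPE and PAM. All 10 were found in the tables, and 9 passed the filter on low counts. Their transcripts were counted in poly(A) RNA-seq libraries made from Kelly, a human neuroblastoma cell line whose MYCN gene is amplified. Cells of WT genotype were transfected with a lipid reagent and collected after 72 hours. The siControl group received a control siRNA (3 libraries) and the siMETTL3 group an siRNA against METTL3 (3 libraries). METTL3 is the catalytic subunit of the enzyme that writes N6-methyladenosine (m6A) on mRNA, and the series title links its inhibition to neuroblastoma differentiation. The design holds 1 cell line, and nothing in the labels says whether the libraries of a group came from separate cultures, so p-values measure the spread between these libraries.

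Dense-core granules are the vesicles in which neuroendocrine and sympathetic cells store peptides and catecholamines until a stimulus releases them. Granins are acidic secretory proteins that aggregate in the trans-Golgi network, help to form the granule and are themselves cut into peptides. Convertases cut prohormones after pairs of basic residues, carboxypeptidase E then trims the exposed basic residues, and peptidylglycine alpha-amidating monooxygenase amidates the new end. Chromogranin A is a tumour marker of neuroblastoma and other neuroendocrine tumours.

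The promoters of several of these genes are known for a cAMP response element, the motif TGACGTCA, which reads the same on both strands. The RefSeq promoter table (GRCh38.p14, from 250 bases before to 50 after each start) held 12 promoters of 8 of the 10 genes. It had no entry for CHGB or SCG2. The full motif stood in 3 of these 12 promoters, those of CHGA, VGF and PCSK1, against 1.85% of all 35116 promoters in the table. The 5-letter core TGACG, searched on both strands and contained in the full motif, stood in 9 of the 12 and in 24.6% of all promoters. The 100 bases before the start are shown for the 3 genes with the full motif and for CPE, the gene with the largest fall; capitals mark TGACG on either strand, and so the full motif where both copies overlap.
CHGA, chr14:92923050-92923149, plus strand: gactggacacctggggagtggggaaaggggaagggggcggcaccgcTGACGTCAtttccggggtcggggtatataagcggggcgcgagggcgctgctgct
VGF, chr7:101165570-101165669, minus strand: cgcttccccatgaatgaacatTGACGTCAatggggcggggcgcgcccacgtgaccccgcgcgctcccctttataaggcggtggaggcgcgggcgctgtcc
PCSK1, chr5:96433249-96433348, minus strand: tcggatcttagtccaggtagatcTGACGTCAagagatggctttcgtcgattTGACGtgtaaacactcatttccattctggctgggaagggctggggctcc
CPE, chr4:165378908-165379007, plus strand: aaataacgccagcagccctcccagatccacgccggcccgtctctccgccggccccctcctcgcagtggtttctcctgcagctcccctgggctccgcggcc
The CPE stretch holds no copy, and its copies of the core lie farther out, at positions -221 and -120. In the CHGA promoter the full motif starts at position -54, in VGF at -79 and in PCSK1 at -77. A match is a description of the letters.

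Total counts ranged from 15430000 to 21565013 per library. METTL3, the targeted gene, was at 54.2 ± 1.80 CPM (read counts per 1000000 counts of the TMM-adjusted library size; SD, n = 3) in siControl and at 33.04 ± 1.27 CPM in siMETTL3, so that 61.0% remained (edgeR quasi-likelihood test, log2 fold change -0.71, SE 0.070, FDR 4.68e-06). TOX4 overlaps 7.90% of the METTL3 span on the opposite strand, and reads there count for both genes. All 10 marker genes of noradrenergic neuroblastoma were detected, with a summed level of 5327 to 5868 CPM in siControl and 7999 to 8474 CPM in siMETTL3. The largest part was the amplified MYCN, with a mean of 3021 CPM in siControl and 4638 CPM in siMETTL3. Of the 10 markers, 6 were higher in siMETTL3 and 1 was lower (70% called, against 37.8% of all tested genes). The marker lists of 6 other cell types summed to at most 107.3 CPM in any library, the fibroblast list being the highest through PDGFRB. The Schwann cell list reached 5.81 CPM in siControl and 8.65 CPM in siMETTL3, the endothelial list 6.35 and 9.88, the adrenal cortex list 4.59 and 5.39, and the epithelial list 7.88 and 10.4. The immune list went from 69.96 to 76.6 CPM in siControl and from 50.02 to 54.98 CPM in siMETTL3, nearly all of it CSF1R, while CD3E averaged 0.0155 CPM or less in each group. The part of these lists in the results was not tested.

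Levels differed widely between the 10 genes. Per kilobase of the canonical transcript, siControl levels were 563 ± 26.1 CPM for CHGA, 53.5 ± 4.01 for PAM, 35.8 ± 2.76 for CPE, 33.6 ± 0.432 for CHGB and 30.3 ± 0.592 for SCG5 (SD, n = 3). SCG3 followed at 19.1 ± 1.56, VGF at 5.48 ± 0.747, SCG2 at 3.22 ± 0.734, PCSK2 at 0.242 ± 0.0382 and PCSK1 at 0.0483 ± 0.00815 CPM per kilobase. In this order only CPE and CHGB had overlapping siControl libraries. CHGA stood at percentile 99.6 of the tested genes with a transcript on this scale, and PCSK2 at percentile 4.55. The tables count reads over the whole gene span, introns included, and 98.6% of the PAM span and 98.1% of the CPE span lie outside the canonical transcript, against 16.7% for VGF. Per kilobase of span, PAM was therefore sixth and CPE seventh, while CHGA stayed first. In siMETTL3, SCG5 (28.05 ± 1.65 CPM per kilobase of transcript) ranked 3, above CHGB (22.7 ± 1.69) and CPE (20.5 ± 0.768), and the CPE libraries overlapped those of CHGB and of SCG3.

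**Figure D1:**
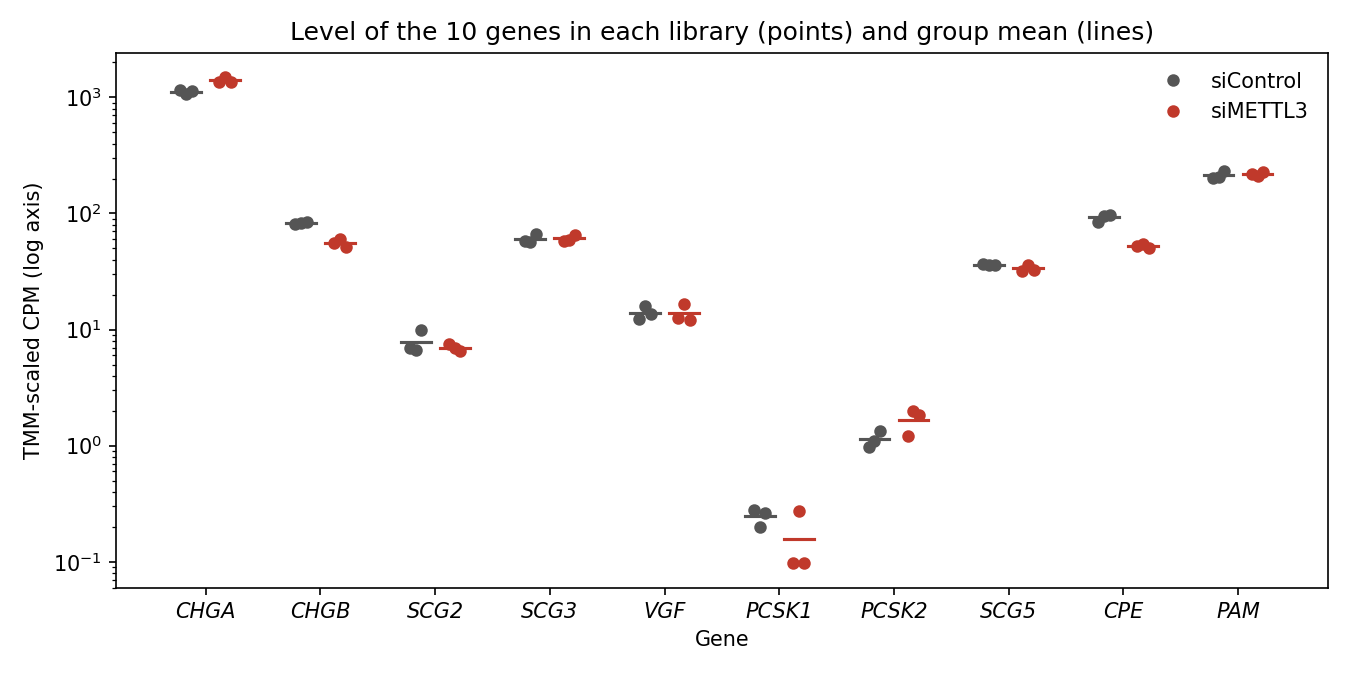
TMM-scaled CPM on a log axis for each of the 10 genes; points are the 3 siControl and 3 siMETTL3 libraries and lines the group means. CHGA lies highest in every library, PCSK1 lowest, and the groups separate for CHGA, CHGB and CPE.

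Of the 9 tested genes, CHGA rose in siMETTL3, CHGB and CPE fell, and 6 did not pass the threshold. The 3 called genes are 33.3% of those tested, against 37.8% of all 15311 tested genes (18.6% higher and 19.2% lower), so the share of called genes was near the background. The groups did not overlap in the same 3 of 9 genes (33.3%), against 49.9% of all tested genes. The median log2 fold change of the 9 genes was -0.012, beside -0.0021 over all tested genes, and the median absolute value was 0.15, beside 0.21. All 9 would have passed the filter on the libraries of either group alone. In bulk RNA, fewer cells with a transcript and less of it per cell cannot be told apart, and this holds for each result that follows.

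Among the granins, CHGA, on chromosome 14 (92923150 to 92935285, plus strand), rose. Its levels were 1161, 1060 and 1130 CPM in siControl replicates 1 to 3 and 1356, 1490 and 1367 CPM in siMETTL3. The lowest siMETTL3 library thus exceeded the highest siControl library. The rise was 1.26-fold, with a 95% interval of 1.15 to 1.38 (log2 fold change 0.33, SE 0.062, edgeR FDR 0.000913). By raw counts CHGA ranked between 18 and 27 among all genes in the siControl libraries and between 12 and 16 in siMETTL3. The 10 genes together held 0.156% to 0.165% of the counts of a siControl library and 0.180% to 0.196% of a siMETTL3 library. CHGA made up 67.7% to 70.6% of that sum in siControl and 75.2% to 76.9% in siMETTL3.

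CHGB, which encodes chromogranin B, moved the other way. The gene lies on chromosome 20 (5911510 to 5925353, plus strand). Replicates 1 to 3 gave 81.6, 82.5 and 83.8 CPM under siControl and 56.03, 60.03 and 51.7 CPM under siMETTL3. The coefficient of variation of the siControl values was 1.29%, and no siMETTL3 library reached them. In siMETTL3, 67.7% of the control level remained (log2 fold change -0.56, SE 0.067, edgeR FDR 2.42e-05).

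The ratio of CHGA to CHGB counts within a library does not depend on the scaling between libraries. It was 14.2, 12.8 and 13.5 in siControl and 24.2, 24.8 and 26.4 in siMETTL3. The mean ratio thus went from 13.5 ± 0.686 to 25.2 ± 1.15 (SD, n = 3), or 1.86 times the control ratio, with no overlap between the groups. This separation follows from the separate results of CHGA and CHGB and is not a further result.

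The other granins did not pass the threshold. SCG2, the precursor of the peptide secretoneurin (chromosome 2, 223596940 to 223602361, minus strand), was at 6.95, 6.66 and 9.89 CPM in siControl and at 7.48, 6.98 and 6.53 CPM in siMETTL3. Its siControl replicate 3 lay above all other libraries and the groups overlapped (log2 fold change -0.15, 95% interval -0.50 to 0.21, edgeR FDR 0.521); without that library the log2 fold change was 0.038 (edgeR FDR 0.875). SCG3, a granin that binds chromogranin A at the granule membrane (chromosome 15, 51681492 to 51721026), was at 60.3 ± 4.94 CPM in siControl and 61.05 ± 3.94 CPM in siMETTL3. Its groups overlapped (log2 fold change 0.020, edgeR FDR 0.863), and the 95% interval of the change went from 0.907-fold to 1.13-fold. Opposite-strand lncRNAs annotated in GENCODE 44 cover 18.3% and 6.45% of the SCG3 span. The counting set no strand option, so some SCG3 counts may belong to them. VGF, a granin-like precursor first found as a gene induced by nerve growth factor (chromosome 7, 101162509 to 101165569), had 12.2, 16.02 and 13.7 CPM in siControl and 12.7, 16.7 and 12.2 CPM in siMETTL3. The highest library of each group was replicate 2, and the spread within a group exceeded the difference between the means (log2 fold change -0.012, 95% interval -0.31 to 0.29, edgeR FDR 0.958).

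The convertases were the lowest of the 10 genes. PCSK1 (chromosome 5, 96390333 to 96434143), the convertase of the early steps of prohormone cleavage, had 6, 4 and 4 counts under siControl and 2, 6 and 2 under siMETTL3. It did not pass the filter and was not tested. Its summed level was 0.246 counts per 1000000 total counts in siControl (14 counts, exact Poisson 95% interval 0.134 to 0.412) and 0.160 in siMETTL3 (10 counts, 0.0768 to 0.295). These intervals treat counts as independent and leave out the spread between libraries. All PCSK1 counts were even, so reads of the same fragment may have been counted separately. In that case the intervals are too narrow. The intervals overlap, which is not a test of a difference. A lncRNA annotated in GENCODE 44 covers 100% of the PCSK1 span on the opposite strand, and the counting set no strand option, so its reads cannot be told apart from those of PCSK1.

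PCSK2 (chromosome 20, 17226107 to 17484578), the convertase of the later steps, had 21, 22 and 20 counts in siControl and 25, 43 and 38 in siMETTL3. Its levels were 0.974, 1.10 and 1.33 CPM in siControl against 1.21, 1.98 and 1.85 CPM in siMETTL3. The siMETTL3 replicate 1 fell among the siControl libraries, so the groups overlapped. The log2 fold change was 0.58 with a 95% interval of -0.090 to 1.26 (edgeR FDR 0.162), an interval that spans both no change and a rise of 2.39-fold. SCG5 (chromosome 15, 32641676 to 32697098), also called 7B2, is the chaperone that PCSK2 needs to become active. It was at 37.1, 35.9 and 35.8 CPM in siControl and at 32.2, 35.9 and 32.7 CPM in siMETTL3. The siMETTL3 replicate 2 lay level with the control libraries and the other 2 siMETTL3 libraries lay below them (log2 fold change -0.11, 95% interval -0.27 to 0.052, edgeR FDR 0.277). The antisense gene SCG5-AS1 covers 30.6% of its span, so some of its counts may belong to that gene.

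Within a library, SCG5 had 38.1, 32.6 and 27.0 counts per PCSK2 count in siControl and 26.5, 18.2 and 17.7 in siMETTL3. These groups did not overlap, but by a narrow gap, and neither gene passed the threshold alone. PCSK1 counts per PCSK2 count were 0.286, 0.182 and 0.200 in siControl and 0.0800, 0.140 and 0.0526 in siMETTL3, also without overlap, from at most 6 PCSK1 counts in a library. For PCSK1 to its inhibitor PCSK1N the groups overlapped, with 0.102, 0.0526 and 0.0541 in siControl and 0.0400, 0.167 and 0.0556 in siMETTL3. The groups also overlapped for SCG2 to CHGB, an unplanned ratio (mean 0.0947 in siControl and 0.125 in siMETTL3). How often such ratios separate over all gene pairs was not tested.

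CPE had the largest fall of the 10 genes. It encodes carboxypeptidase E (chromosome 4, 165361194 to 165498547, plus strand), the enzyme that trims basic residues after the convertases have cut. Its levels were 84.4, 95.5 and 97.6 CPM in siControl and 52.6, 54.9 and 50.9 CPM in siMETTL3. The lowest siControl library lay well above the highest siMETTL3 library. In siMETTL3, 57.2% of the control level remained, with a log2 fold change of -0.81 (95% interval -0.96 to -0.66, SE 0.069, edgeR FDR 1.59e-06). Its siMETTL3 libraries spread less than its siControl libraries, with coefficients of variation of 3.76% and 7.70%.

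PAM (chromosome 5, 102753981 to 103031105, plus strand), the copper- and ascorbate-dependent enzyme that amidates peptide ends, did not pass the threshold. It was at 201, 208 and 232 CPM in siControl and at 217, 211 and 229.6 CPM in siMETTL3. The siMETTL3 values lay inside the siControl range (log2 fold change 0.040, 95% interval -0.097 to 0.18, edgeR FDR 0.666). PAM had 2.38, 2.17 and 2.37 counts per CPE count in siControl and 4.13, 3.85 and 4.51 in siMETTL3. The mean ratio of PAM to CPE counts in siMETTL3 was 1.80 times the siControl mean, with no overlap. This ratio was chosen after the values had been seen.

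**Figure D2:**
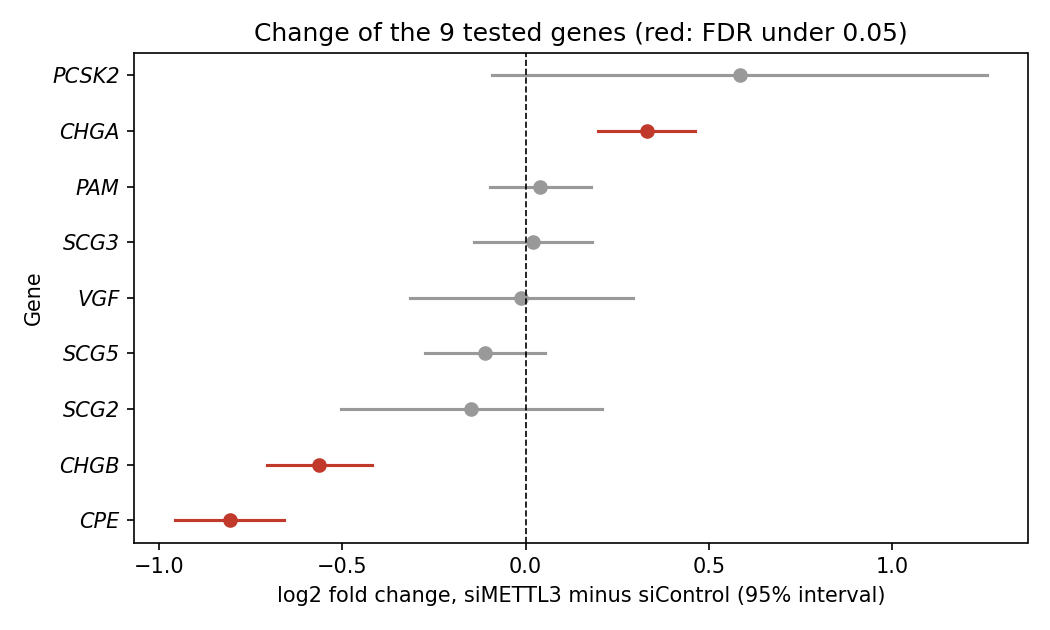
Log2 fold change of siMETTL3 minus siControl with its 95% interval for the 9 tested genes, ordered by value; red marks an edgeR FDR under 0.05. The intervals of CHGA, CHGB and CPE exclude 0, and that of PCSK2 is the widest, from -0.090 to 1.26.

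**Figure D3:**
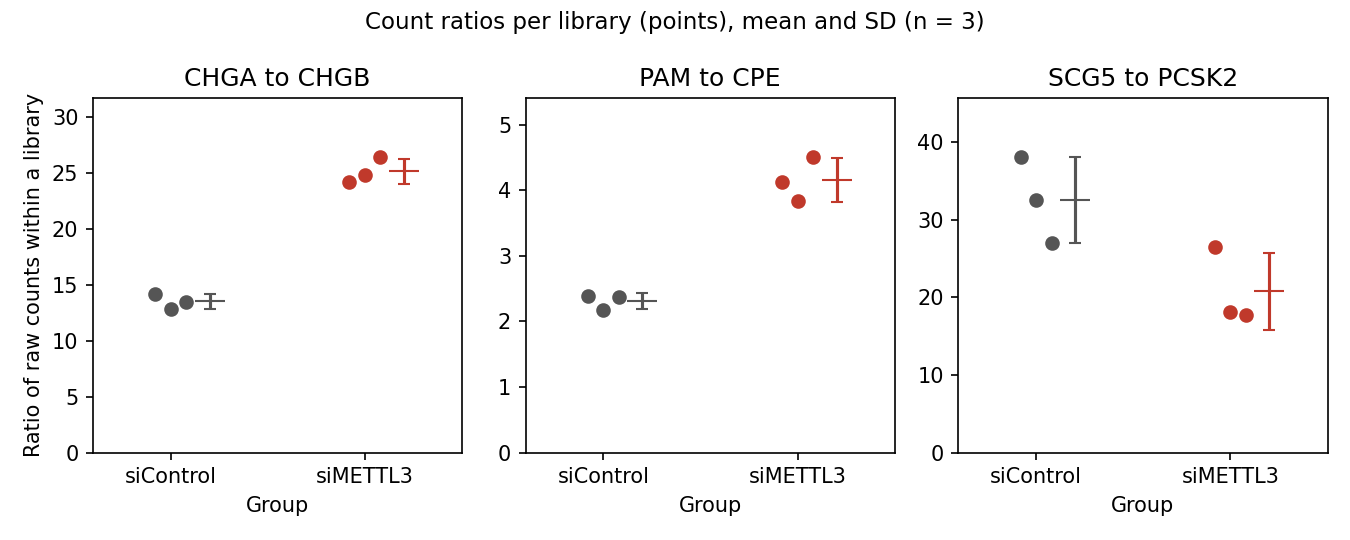
Ratio of raw counts of a gene pair within each library (points), with the group mean and SD (n = 3) beside them, on linear axes from 0. CHGA to CHGB went from a mean of 13.5 to 25.2 and PAM to CPE from 2.31 to 4.16; SCG5 to PCSK2 went from 32.6 to 20.8 with the groups nearly touching.

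METTL3 is known to methylate the adenosine of GGACT more often than that of most other sequences. The tables hold no methylation values, so only the letters can be given. In the canonical transcripts of GENCODE 44, searched on the transcript strand, the 10 genes held 20 copies of GGACT, of which 16 were in the coding part and 4 in the 3′ UTR. CHGB held 0, as did 8.71% of the 14564 tested genes with a transcript. The densities were 0.504 copies per kilobase in CHGA, 0.387 in CPE, 1.00 in PAM, 1.27 in SCG3 and 2.50 in SCG5, against a median of 0.929 and quartiles of 0.564 and 1.39 over the tested genes. In all, 7 of the 10 genes lay below that median, the 3 called genes among them. The copy nearest to the end of the coding part is shown within 25 bases for the called genes that hold one and for the 3 genes above the median; capitals mark GGACT.
CHGA, chr14:92932562-92932586, plus strand, coding: aggagtgggaGGACTccaaacgctg
CPE, chr4:165467692-165467716, plus strand, coding: gtgaactcaaGGACTggtttgtggg
PAM, chr5:103029168-103029192, plus strand, 3′ UTR: agtctgtgtgGGACTgtacacactt
SCG3, chr15:51719800-51719824, plus strand, 3′ UTR: agcctctaatGGACTgaccttaaaa
SCG5, chr15:32679844-32679868, plus strand, coding: acattcctaaGGACTttagtgagga
Of these, the PAM copy lies closest to the end of the coding part, 118 bases after its last base, and the CPE copy farthest, 907 bases before it. CHGB and CPE, which fell, held 0 and 1 copies, and CHGA, which rose, held 1. Only GGACT in the canonical transcript was searched, so a count of 0 does not mean that a transcript is not methylated. A link between copies and direction was not tested.

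The enzymes that act beside the 10 genes were taken from a list of 18 processing enzymes and inhibitors. Of 17 tested, 5 were higher and 2 lower in siMETTL3 (41.2% called, against 37.8% of all tested genes). The median log2 fold change was 0.17. PCSK5, another proprotein convertase, rose from 17.4 ± 0.910 to 41.6 ± 0.960 CPM (log2 fold change 1.25, SE 0.081, edgeR FDR 1.07e-07). CYB561, the granule membrane protein that passes electrons inward to the copper enzymes PAM and DBH, rose from 217.7 ± 10.1 to 334 ± 10.2 CPM (log2 fold change 0.62). RNPEP, an aminopeptidase of basic residues, rose (0.46), and the carboxypeptidase gene CPM, which overlaps another gene of the tables, fell (-0.43). CPD, a carboxypeptidase of the same family as CPE, was at 44.3 CPM in siControl and 45.2 CPM in siMETTL3 (log2 fold change 0.031, edgeR FDR 0.788). PCSK1N, the inhibitor of PCSK1, was low at 3.82 CPM and fell by 0.95 on the log2 scale (edgeR FDR 0.0112). CPD and PCSK1N were named after their values had been seen.

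Of 22 genes for the granule membrane, docking and release, 21 were tested, with 9 higher and 3 lower. Called were 57.1%, against 37.8% of all tested genes, and the median log2 fold change was 0.11. SLC18A2, which loads monoamines into granules and overlaps another gene of the tables, had a log2 fold change of 1.08, and RAB3B, a small GTPase of granule docking, one of 1.39. PTPRN, a receptor phosphatase-like protein of the granule membrane, rose from 31.5 ± 3.45 to 63.7 ± 2.22 CPM (log2 fold change 1.01, SE 0.081, edgeR FDR 8.67e-07). SYT7, a calcium sensor of release, rose as well (0.84). The 3 lower genes, named after their values had been seen, were CADPS (-0.47), SYT1 (-0.32) and MYRIP (-0.29). The 22 granule biogenesis genes, all tested, split evenly, with 7 higher and 7 lower. Their share called was 63.6%, against 37.8% of all tested genes, and their median log2 fold change was 0.064. This list, like the others, was chosen with earlier results of these data known, so its share is only a description. ICA1, a protein of immature granules, was lower, at 270.9 ± 5.82 CPM against 428 ± 14.2 CPM in siControl (log2 fold change -0.66), and VPS50, a subunit of the EARP tethering complex, fell too (-0.39). Its partners VPS51 and VPS52, named after their values had been seen, also fell (-0.31 and -0.34), while VPS53, of the same complex, rose (0.55). VTI1A, a SNARE protein, rose as well (0.36).

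Peptide precursors are the cargo that PCSK1, PCSK2, CPE and PAM process. Of 44 prohormone and neuropeptide genes 23 were tested, with 4 higher and 3 lower (30.4% called, against 37.8% of all tested genes) and a median log2 fold change of 0.13. The list summed to 121.8 to 137.7 CPM in the siControl libraries and to 335.4 to 352.9 CPM in the siMETTL3 libraries, and TAC1, CCK, OXT and INS had 0 counts in all 6. CARTPT, the precursor of the CART peptides, rose from 28.0 ± 7.31 to 172.05 ± 7.07 CPM (log2 fold change 2.61), and GAL, the galanin precursor, from 25.4 ± 1.88 to 51.6 ± 3.65 CPM (1.02). CRH had a log2 fold change of 3.75, and BDNF, whose precursor is also cut by convertases, fell (-0.55). NPY and TAC3, named after their values had been seen, were low and fell as well (-1.06 and -0.91). The higher sum in siMETTL3 thus rests mainly on CARTPT, CRH, which went from 4.51 to 61.3 CPM, and GAL.

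**Figure D4:**
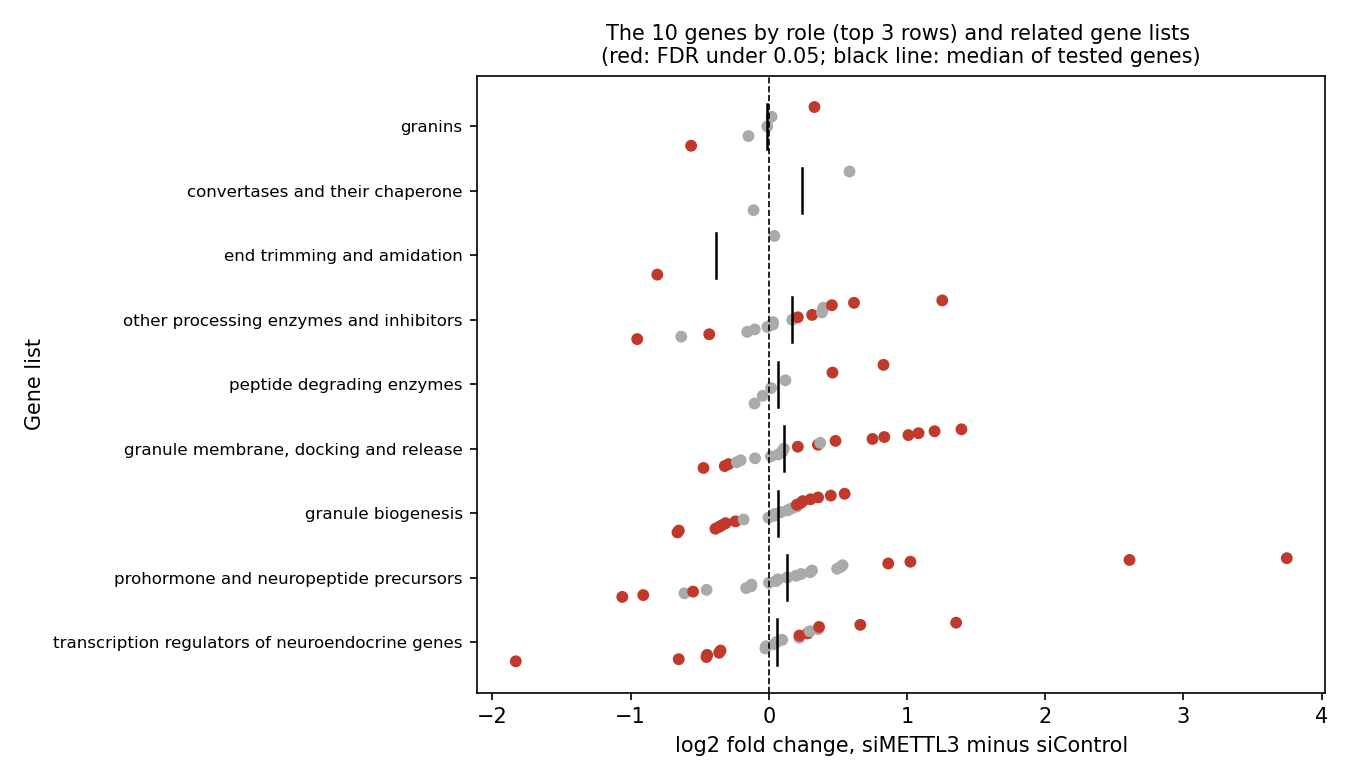
Log2 fold change of siMETTL3 minus siControl for each tested gene, with the 10 genes by role in the top 3 rows (PCSK1 was not tested) and the related lists below; red marks an edgeR FDR under 0.05 and the black line the median. Among the 6 related lists, called genes lie on both sides of 0 in all but that of the peptide degrading enzymes, and the precursors reach farthest, to 3.75 for CRH.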

How the data were processed

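Each poly(A) RNA-seq library was deposited as 1 table of raw counts per gene. The authors counted reads with featureCounts v1.5.3 over whole gene spans of GENCODE release 33 protein genes, per the file headers, with multi-gene reads counted for each gene and no strand option. The submitters' processing notes also name FastQC 0.11.5, Trimmomatic 0.36, HISAT2 2.1.0 and GRCh38. None of the 10 genes overlaps another gene of the tables. The precision depends on the totals, from 15430000 to 21565013 counts, and on the spread between libraries.

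From these counts, genes were filtered with filterByExpr (15311 kept), scaled by TMM and tested with edgeR 4.0.16 in R 4.3.3 (robust glmQLFit and glmQLFTest, siMETTL3 against siControl, no covariate). FDR values are Benjamini-Hochberg over all 15311 genes, with a threshold of 0.05. SE is the absolute log2 fold change over the square root of F, and intervals use the fit's degrees of freedom. The fit was tested on simulated data. Alternatives were 3 scalings, 2 filters, DESeq2 1.42.0, limma 3.58.1 (voom), a replicate block, genes without overlaps, an intron length offset and each library left out.

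The members and lists were chosen with earlier results of these data known. Named were all 10 genes, METTL3, the called genes of smallest FDR in each list (at most 4), and the 3 genes most correlated with the called genes of largest rise and fall. Spans are those of the tables (GRCh38); canonical transcripts came from GENCODE 44 and were found for 95.1% of tested genes. Protein sequence features and 1 Schwann cell marker were not analysed here.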

Additional observations from a re-analysis of the deposited data

How the results depend on the processing

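The calls of CHGA, CHGB and CPE held in all 16 alternatives that were run. The log2 fold change went from 0.28 to 0.38 for CHGA (edgeR or other FDR at most 0.0143), from -0.62 to -0.51 for CHGB (at most 0.000592) and from -0.89 to -0.77 for CPE (at most 0.000101). No setting brought another of the 9 genes past the threshold: the lowest FDR was 0.0812 for SCG5 and 0.100 for PCSK2. METTL3 stayed lower throughout, from -0.74 to -0.67. Genes near 0 changed sign without a call. SCG3 was at -0.015 with the intron length offset, and between -0.034 and 0.085 with a library left out. VGF was at 0.0024 with upper quartile scaling, 0.011 with total counts, 0.13 with the intron length offset, and between -0.17 and 0.10 with a library left out. PAM was at -0.014 with the offset and between -0.0012 and 0.10 with a library left out, and SCG2 between -0.25 and 0.038. The causes were not tested. PCSK1 entered the fit only without a filter (log2 fold change -0.63, SE 0.85, edgeR FDR 0.633).

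Among genes without overlaps 3751 were called, against 5786 of all tested genes. The set without overlaps is smaller, so these counts have unlike denominators and are not compared as shares. Leaving out a library gave 4210 to 6394 called genes. In such fits the calls went from 5 to 8 for the processing enzymes, 2 to 3 for the degrading enzymes, 10 to 14 for membrane and release, 10 to 17 for biogenesis, 5 to 8 for the precursors and 10 to 12 for the regulators. Libraries that share a replicate number were not treated as pairs in the main fit. Their deviations from the group means correlated at 0.040, 0.049 and 0.067. Libraries with different numbers lay lower, from -0.064 to 0.026, so a weak link between equal numbers is possible. With the replicate block 6166 genes were called, and the log2 fold changes were -0.71 for METTL3, 0.33 for CHGA, -0.56 for CHGB and -0.81 for CPE. Low counts limit PCSK1 and PCSK2.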

Other observations

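A list of 8 peptide degrading enzymes had 6 tested genes, of which 2 were higher and 0 lower in siMETTL3. Called were 33.3%, against 37.8% of all tested genes, and the median log2 fold change was 0.068. ACE, which removes C-terminal dipeptides and overlaps another gene of the tables, was at 31.3 ± 2.31 CPM in siControl and rose to 55.7 ± 1.82 CPM in siMETTL3, by 0.83 on the log2 scale (edgeR FDR 2.49e-06). ECE1, the endothelin-converting enzyme, rose as well (0.46).

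Of 19 transcription regulators of neuroendocrine genes, all tested, 5 were higher and 6 lower (57.9% called, against 37.8% of all tested genes, median 0.057). PROX1, a homeobox factor, rose from 129.8 ± 7.05 to 205 ± 5.88 CPM (log2 fold change 0.66). INSM2, a zinc finger factor, fell from 493 ± 47.8 to 314 ± 12.1 CPM (-0.65), EGR1, an immediate early factor, fell from 3.79 to 1.05 CPM (-1.83), and RCOR2, a corepressor, fell (-0.36). REST, the repressor known to silence granin and other neuronal genes outside the nervous system, was lower in siMETTL3. It was at 23.9 ± 0.392 CPM in siControl and 17.6 ± 0.447 CPM in siMETTL3 (log2 fold change -0.45, edgeR FDR 0.00113). RCOR1 and SIN3A rose (0.36 and 0.28), and CREB1, CREM and ATF1 did not pass the threshold. REST and these genes were named after their values had been seen. Whether their changes bear on the granins was not tested.

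Over the 6 libraries, the genes among 11763 whose log2 CPM ran most like that of CHGA were ITSN1, EXD2 and SGPL1 (Pearson r of 0.998, 0.993 and 0.992). For CPE they were PHLDA3, DDT and AC253536.7 (0.999 each). The spans of DDT and AC253536.7 overlap, so both count the same reads. These values describe 6 libraries in 2 groups, in which many genes share the step between the groups.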
